A study of Mus musculus with 6 samples.

Results

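Oxidative phosphorylation genes were taken as all genes whose symbol in the platform annotation names a nuclear-encoded subunit of respiratory complexes I to IV or of the ATP synthase, cytochrome c, or a factor with the same symbol stem (Ndufa, Ndufb, Ndufc, Ndufs, Ndufv, Sdh, Uqcr, Cox4 to Cox8, Atp5, Cyc1 and Cycs). The symbols selected 110 probes of 87 genes, out of 25697 probes and 16593 gene symbols on the array. Because Ndufaf symbols share the stem, 5 assembly factors of complex I are included, and so is Cox7a2l, a factor that joins complexes into supercomplexes. Each array carries negative control beads, and a probe's detection p compares it with them. Probes entered the test when this p was under 0.05 on every array of TGF-β1-treated cells, of untreated cells or of both, which kept 88 probes of 74 genes. Where a gene had several such probes, the brightest was used.

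The arrays came from GIF-14 cells, a mouse epithelial line from fetal stomach in which both Runx3 and p53 are deleted (Runx3-/-;p53-/-). The fraction that had not yet undergone epithelial-mesenchymal transition (EMT) was used. Of 6 Illumina MouseRef-8 arrays, 3 measured cells treated with 2.5 ng/ml of TGF-β1 for 24 h and 3 measured untreated cells, and both groups carry the same 2 deletions. All arrays come from this 1 line, and the methods call the 3 arrays of a group biological triplicates. The comparison asks which genes had changed after 1 day of the growth factor. On the 6 arrays, 11381 to 11797 probes were above background, and log2 signals correlated with r of 0.982 to 0.997 within groups and 0.936 to 0.953 between them. The probe for Runx3 was not above background on any array. All 7 epithelial marker genes with a probe were above background, among them the keratins Krt8, Krt18 and Krt19. Of 7 fibroblast markers 1 was tested, the collagen gene Col1a1, and since untreated cells were not above background its rise is a bound, at least 2.13-fold (limma adjusted p = 3.68e-05). The summed signal of the fibroblast list was 787 to 829 after TGF-β1 and 668 to 713 in untreated cells. Of 5 immune markers 0 were above background on all arrays of a group, and of 6 endothelial markers 1 was (Pecam1). The part of these genes in the results below was not tested. In such bulk RNA, fewer cells of a kind and less RNA per cell cannot be told apart.

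Oxidative phosphorylation passes electrons from NADH, through complex I, or from succinate, through complex II, to coenzyme Q. Complex III, cytochrome c and complex IV then hand them on to oxygen, and the proton gradient built on the way drives the ATP synthase. Most subunits are encoded in the nucleus and imported, a few are encoded by mitochondrial DNA, and dedicated assembly factors put the parts together. The coactivator PGC-1α (Ppargc1a) and the factors NRF1, GABP, YY1 and ERRα are known regulators of these genes.

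TGF-β1 left most oxidative phosphorylation genes little changed, and those that passed the test were nearly all lower. Of the 74 genes, 10 passed at an adjusted p under 0.05 by limma with Benjamini-Hochberg adjustment over all 7725 genes tested. This is 13.5% of them, whereas 35.7% of all genes tested passed. Lower in TGF-β1-treated cells were 9 of the 74 (12.2%, beside 18.4% of all genes), and 1 was higher (17.3% of all genes). The log2 fold change was below 0 for 61 of 74 genes (82.4%), beside 46.0% of all genes, and its median was -0.12, beside 0.03. The size of the change stayed under 0.25 log2 for 55 members (74.3%), beside 55.6% of all genes. The arrays of the groups did not overlap for 28 genes (37.8%), beside 48.2% of all genes. In 26 of these all 3 TGF-β1 arrays were lower than all untreated arrays (23.7% of all genes), and in 2 all 3 were higher (24.6% of all genes). Among the single probes, 11 of 88 passed, 10 lower and 1 higher, beside 32.3% of all probes tested. The median of each complex was below 0: -0.11 for complex I, -0.33 for complex II, -0.12 for complex III with cytochrome c, -0.12 for complex IV and -0.16 for the ATP synthase. For 51 of the 64 genes that did not pass, the 95% interval of the log2 fold change lay within 0.5 of 0 on both sides. With 3 arrays a group, the smallest p of an exact permutation test (two-sided) is 0.1 for any gene, so the calls rest on limma's spread shared across genes.

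**Figure D1:**
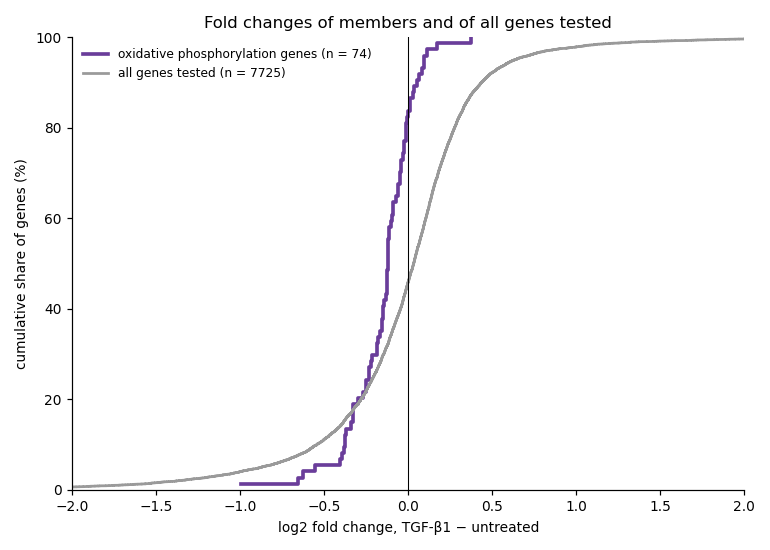
Cumulative share of genes (%) against the log2 fold change, TGF-β1 minus untreated, for the 74 oxidative phosphorylation genes and all 7725 genes tested. The curve of the members is steep and reaches 82.4% near 0, where that of all genes is at 46.0%.

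**Figure D2:**
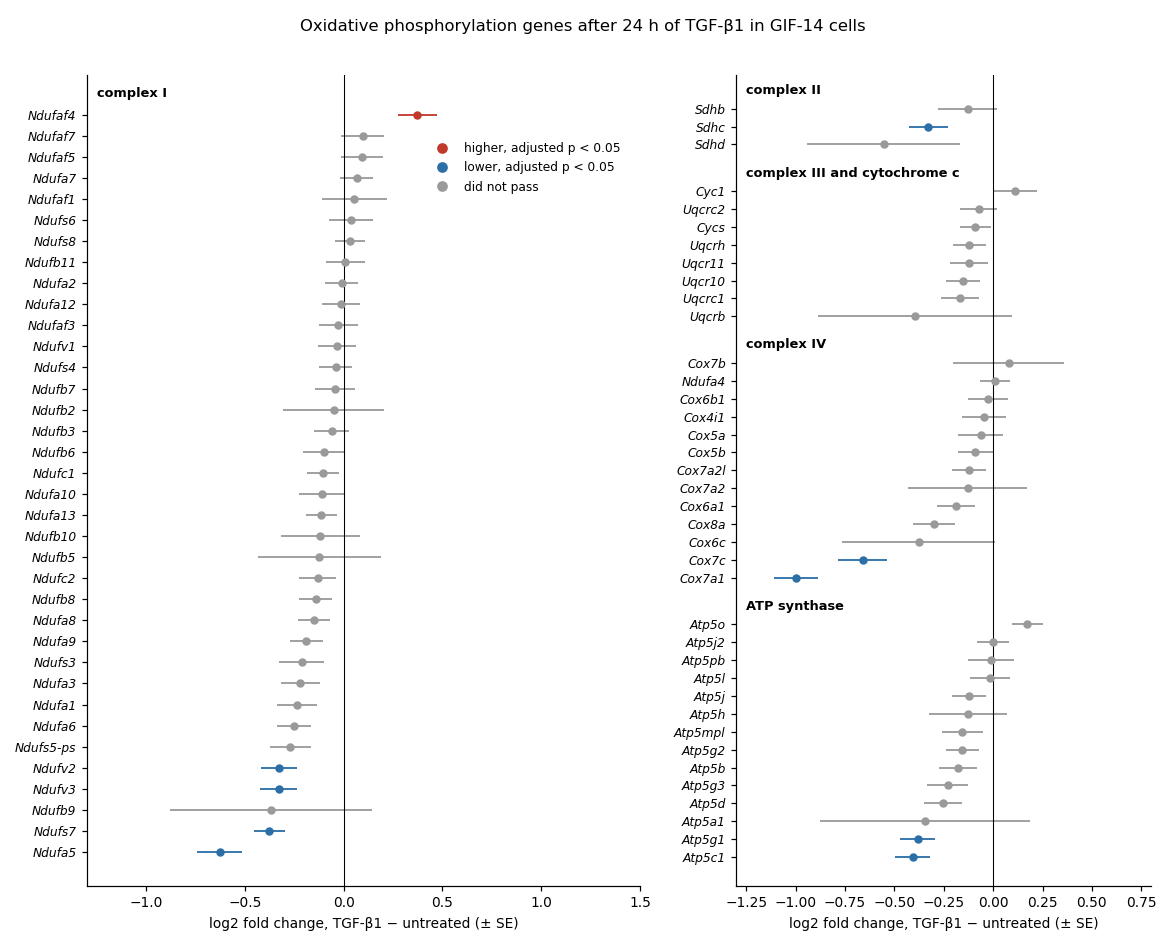
Log2 fold change, TGF-β1 minus untreated, with its SE for each of the 74 tested members, ordered within complex I (left) and within complexes II to IV and the ATP synthase (right). Blue genes passed as lower, the red gene passed as higher and grey genes did not pass. The widest bars belong to Atp5a1, Ndufb9 and Uqcrb.

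Promoter windows from 250 bases before to 50 bases after the annotated start were available for 71 of the 87 genes in the RefSeq table (GRCm38.p6). They are shown for Ndufaf4, the gene that was higher, for Cox7a1 and Cox7c, which fell most, and for Ndufs7, which fell and holds a YY1 match. Capitals mark matches, on either strand, to 4 motifs: GCATGCGC (the NRF1 core), CCGGAAG (the ETS core that GABP reads), AAGATGGC (YY1) and AAGGTCA (the ERRα core).
Ndufaf4, chr4:24897833-24898132, plus strand: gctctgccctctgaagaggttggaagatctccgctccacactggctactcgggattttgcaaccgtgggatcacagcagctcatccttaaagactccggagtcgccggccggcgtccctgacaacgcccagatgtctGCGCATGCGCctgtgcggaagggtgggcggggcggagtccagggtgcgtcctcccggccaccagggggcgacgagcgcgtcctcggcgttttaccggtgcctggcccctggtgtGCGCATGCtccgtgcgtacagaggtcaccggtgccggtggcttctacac
Cox7a1, chr7:30183921-30184220, plus strand: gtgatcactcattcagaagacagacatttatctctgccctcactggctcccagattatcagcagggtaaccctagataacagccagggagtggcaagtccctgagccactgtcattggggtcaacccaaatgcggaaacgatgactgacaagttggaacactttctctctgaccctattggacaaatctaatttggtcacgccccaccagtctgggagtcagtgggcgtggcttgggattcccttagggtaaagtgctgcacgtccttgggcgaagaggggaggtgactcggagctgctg
Cox7c, chr13:86046746-86047045, minus strand: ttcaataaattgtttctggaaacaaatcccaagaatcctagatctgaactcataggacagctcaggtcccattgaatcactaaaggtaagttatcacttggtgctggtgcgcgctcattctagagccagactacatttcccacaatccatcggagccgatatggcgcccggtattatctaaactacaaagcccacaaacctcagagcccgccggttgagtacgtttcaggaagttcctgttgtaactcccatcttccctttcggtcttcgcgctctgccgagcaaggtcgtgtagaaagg
Ndufs7, chr10:80249199-80249498, plus strand: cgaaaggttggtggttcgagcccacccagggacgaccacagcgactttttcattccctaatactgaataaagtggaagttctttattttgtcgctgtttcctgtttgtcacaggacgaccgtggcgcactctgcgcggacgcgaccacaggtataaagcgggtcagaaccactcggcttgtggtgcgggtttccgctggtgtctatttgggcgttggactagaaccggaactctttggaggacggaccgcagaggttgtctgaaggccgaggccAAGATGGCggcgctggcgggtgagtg
The Ndufaf4 window held 3 matches to the NRF1 core, of which 2 lie on opposite strands over the same palindrome, and the Ndufs7 window held 1 match to the YY1 motif close to the start. The windows of Cox7a1 and Cox7c held none of the 4 letter strings. Across the family, the NRF1 core was present in 15.8% of the members' windows and 2.71% of all windows, the ETS core in 22.4% and 8.86%, the YY1 motif in 13.2% and 2.75%, and the ERRα core in 9.21% and 4.72%. Of the 9 genes with a window that passed the test, 1 held the NRF1 core (Ndufaf4), 1 held the YY1 motif (Ndufs7) and 0 held either of the other two. These are letter matches only and show no binding.

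Complex I takes electrons from NADH, and 36 of its 39 genes were tested: 4 were lower, 1 was higher and 31 did not pass. The lower genes made up 11.1%, beside 18.4% of all genes, and 13.9% passed either way, beside 35.7%. The largest change was in Ndufa5, an accessory subunit of the arm that reaches into the matrix. Its log2 normalized signal was 11.38, 11.21 and 10.96 on the TGF-β1 arrays and 11.78, 11.78 and 11.88 on the untreated arrays. The groups did not overlap, and the signal was 35.3% lower after TGF-β1 (log2 fold change -0.63, SE 0.115, limma adjusted p = 0.00320). Ndufs7, the core subunit that binds the iron-sulfur cluster closest to coenzyme Q, read 11.09, 11.21 and 11.18 after TGF-β1 and 11.56, 11.56 and 11.50 in untreated cells. It was 23.0% lower (log2 fold change -0.38, SE 0.079, adjusted p = 0.00648), with arrays of each group within 0.12 of each other. Ndufv2, a core subunit of the module that oxidises NADH, read 12.01, 11.85 and 12.11 after TGF-β1 and 12.26, 12.32 and 12.37 in untreated cells. Its groups lay close together without overlap (log2 fold change -0.33, SE 0.093, adjusted p = 0.0251), and the call was lost in 5 of 6 cases when 1 array was left out (-0.39 to -0.26). Ndufv3, an accessory subunit of the same module, read 11.85, 11.79 and 11.81 after TGF-β1 and 12.05, 12.07 and 12.31 in untreated cells. It was 20.4% lower (log2 fold change -0.33, SE 0.094, adjusted p = 0.0256), and untreated replicate 3 stood above the other untreated arrays. Its call was lost in 4 of the 6 cases (-0.38 to -0.25). Among the 5 tested core subunits, 2 passed (40%, Ndufs7 and Ndufv2), and among the 25 accessory subunits 2 passed (8%, Ndufa5 and Ndufv3). Of all genes 35.7% passed, and no test compared these classes.

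The assembly factors of complex I were the only class within the family with a median above 0 among those with at least 5 tested genes: 0.09 over 5 genes. Ndufaf4, a factor needed for the early steps of complex I assembly, read 9.70, 9.73 and 9.61 after TGF-β1 and 9.14, 9.42 and 9.36 in untreated cells. It was 29.5% higher (log2 fold change 0.37, SE 0.097, adjusted p = 0.0176), with untreated replicate 1 the lowest array. Its call was lost in 3 of 6 cases when 1 array was left out (0.29 to 0.43). The other assembly factors did not pass, with log2 fold changes of 0.10 for Ndufaf7, 0.09 for Ndufaf5, 0.05 for Ndufaf1 and -0.03 for Ndufaf3. Of the brightest complex I probes that did not pass, log2 fold changes were -0.11 for Ndufa13, 0.07 for Ndufa7, -0.25 for Ndufa6 and -0.03 for Ndufv1, all accessory subunits except the core subunit Ndufv1. Ndufa6 lay just outside the threshold (SE 0.086, adjusted p = 0.0505), and its groups did not overlap. It passed under 5 of 17 alternative settings, with adjusted p-values of 0.00605 to 0.163 over all of them.

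**Figure D3:**
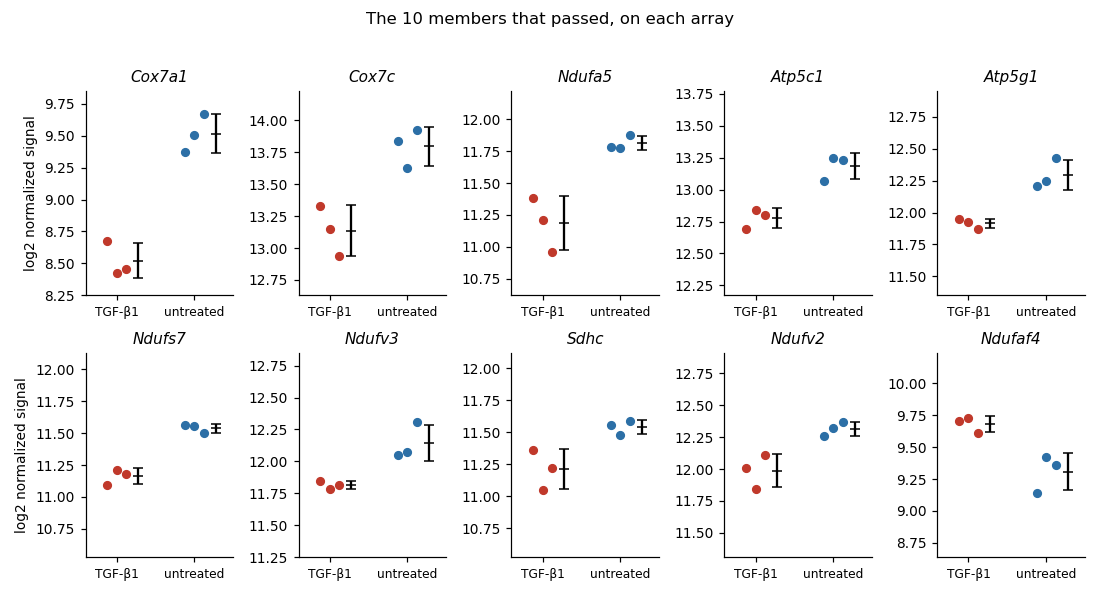
Log2 normalized signal of the 10 members that passed, in TGF-β1-treated cells (red, left) and untreated cells (blue, right), with each array as a point and the mean with its SD as a bar (n = 3 each). Each panel spans the same range of 1.6 log2. The groups do not overlap in any of the 10, and only Ndufaf4 is higher after TGF-β1.

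Complex II carries the succinate dehydrogenase reaction of the tricarboxylic acid cycle, and all 3 of its genes on the list were tested. Sdhc, a membrane anchor subunit, read 11.36, 11.05 and 11.22 after TGF-β1 and 11.55, 11.48 and 11.59 in untreated cells. It was 20.4% lower (log2 fold change -0.33, SE 0.099, adjusted p = 0.0321), with groups that came close but did not overlap. Leaving out 1 array ended this call in 5 of 6 cases, with log2 fold changes of -0.40 to -0.25. The iron-sulfur subunit Sdhb did not pass (-0.13, SE 0.15). The other anchor subunit, Sdhd, had a log2 fold change of -0.55 with an SE of 0.39, and its arrays are given with the other genes that varied within groups.

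Complex III and cytochrome c gave no gene past the threshold. By limma 0 of 8 passed (35.7% of all genes), and by the methods' t-test 0 (26.8% of all genes). An unadjusted limma p under 0.05 was found for 0 of them. That count was not made for all genes, so this 0 cannot be weighed against a share. The brightest of them were the small subunits Uqcr10 (log2 fold change -0.15, SE 0.085), Uqcrh (-0.12, SE 0.082) and Uqcr11 (-0.12, SE 0.097), and Uqcrc2, one of the large matrix-facing proteins (-0.07, SE 0.093). Cyc1, the haem-bearing cytochrome c1, had the only value above 0 in this complex (0.11, SE 0.11). Cycs, the mobile carrier cytochrome c, read 6.87, 6.76 and 6.83 after TGF-β1 and 6.89, 6.93 and 6.91 in untreated cells, a difference of -0.09 that did not pass. This probe read low, since Cox6b2, not above background on any array, reached 6.45, so the size of the change is uncertain. A second Cycs probe was above background on 1 TGF-β1 array and 2 untreated arrays and was not tested.

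Complex IV, cytochrome c oxidase, held the largest change of the family. Cox7a1, the isoform of subunit VIIa known from heart and skeletal muscle, read 8.68, 8.43 and 8.46 after TGF-β1 and 9.37, 9.51 and 9.67 in untreated cells. The highest TGF-β1 array lay 0.70 below the lowest untreated array, and the signal was 49.9% lower (log2 fold change -1.00, SE 0.11, adjusted p = 0.00019). Its widely expressed counterpart Cox7a2 did not pass (-0.13, SE 0.30). Cox7c, a small structural subunit, read 13.33, 13.15 and 12.93 after TGF-β1 and 13.84, 13.63 and 13.92 in untreated cells. It was 36.7% lower (log2 fold change -0.66, SE 0.12, adjusted p = 0.00379), and its groups did not overlap. The other 11 of 13 tested genes of the complex did not pass. The share that passed was 15.4%, beside 35.7% of all genes. Of the brightest, Ndufa4, named after complex I but now counted as a complex IV subunit, had a log2 fold change of 0.01, and Cox4i1, Cox6a1 and Cox6b1 had -0.05, -0.19 and -0.03. Of the 7 alternative or tissue-restricted isoforms on the array Cox7a1 was the only one tested.

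The ATP synthase had 14 of 16 genes tested, of which 2 were lower (14.3%, beside 18.4% of all genes). By limma 0 were higher (17.3% of all genes). Atp5c1, the γ subunit that forms the rotating central stalk, read 12.69, 12.84 and 12.80 after TGF-β1 and 13.07, 13.25 and 13.24 in untreated cells. It was 24.6% lower (log2 fold change -0.41, SE 0.089, adjusted p = 0.00791). Atp5g1, a gene for subunit c of the rotor ring in the membrane, read 11.95, 11.92 and 11.87 after TGF-β1 and 12.21, 12.25 and 12.43 in untreated cells. It was 23.2% lower (log2 fold change -0.38, SE 0.088, adjusted p = 0.0103), and neither gene's groups overlapped. Subunit c has further genes that encode the same mature protein: Atp5g2 had a log2 fold change of -0.16 (SE 0.084) and Atp5g3 one of -0.23 (SE 0.10), and neither passed. The catalytic β subunit Atp5b had a log2 fold change of -0.18 (SE 0.096), and the membrane and stalk subunits Atp5j2 and Atp5j had 0.00 and -0.12. Atp5o, a stalk subunit, read 9.69, 9.60 and 9.67 after TGF-β1 and 9.47, 9.50 and 9.46 in untreated cells. It was the only other member with all TGF-β1 arrays above all untreated arrays, and it did not pass by limma (0.17, SE 0.077). By the methods' t-test, which 26.8% of all genes passed, 3 of the 14 genes of this complex passed. Atp5c1 and Atp5g1 were lower and Atp5o was higher.

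Several genes were measured by more than 1 probe: 17 members had several probes and 11 had several tested. Ndufv3 had 3 tested probes, 2 of which passed as lower over the 11189 probes tested (-0.33 and -0.43), while the third, read near 7.2 to 7.4 on every array, gave -0.04. Ndufa5 had a second probe with -0.50 (SE 0.27), which did not pass and was not above background on 1 TGF-β1 array. The 4 probes for Ndufs4, an accessory subunit of complex I, gave -0.04, 0.00, -0.11 and -0.10, and none passed. They differed in how far their arrays spread. The brightest Ndufs4 probe spanned 0.13 log2 over the TGF-β1 arrays and 0.16 over the untreated arrays. The widest spanned 1.31 and 1.39: it read 7.75, 8.37 and 9.07 after TGF-β1 and 9.03, 8.85 and 7.63 in untreated cells. No member had probes that passed in opposite directions.

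Such variation within groups marked a part of the family. For 14 of the 88 probes (15.9%), and 10 of the 74 genes, the signal spanned more than 0.5 log2 within both groups, beside 5.90% of all probes and 5.45% of all genes. In all 14, TGF-β1 replicate 1 was the lowest and TGF-β1 replicate 3 the highest of the treated arrays, and untreated replicate 3 was the lowest untreated array. Among all 660 such probes of the array the same order held for 605 (91.7%). The widest was Atp5a1, the α subunit of the ATP synthase catalytic head, with 7.50, 8.17 and 9.14 after TGF-β1 and 9.32, 9.08 and 7.43 in untreated cells. Uqcrb, a small complex III subunit, read 8.49, 9.15 and 9.84 after TGF-β1 and 10.23, 10.04 and 8.40 in untreated cells. Ndufb9, an accessory complex I subunit, read 7.12, 7.35 and 8.71 after TGF-β1 and 8.75, 8.49 and 7.03 in untreated cells. In all 3 genes TGF-β1 replicate 3 lay near untreated replicates 1 and 2, and TGF-β1 replicate 1 lay near untreated replicate 3. Sdhd read 6.56, 7.17 and 7.61 after TGF-β1 and 8.17, 8.07 and 6.76 in untreated cells, with 1 TGF-β1 array not above background. Cox6c, a small complex IV subunit, read 10.72, 11.33 and 11.62 after TGF-β1 and 12.07, 12.09 and 10.64 in untreated cells. The other 5 genes were Ndufb2, Ndufb5, Cox7a2, Cox7b and Atp5h, and none of the 10 passed. These 10 genes were singled out after their values were seen.

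The mean signal of the arrays before normalization moved with this order in part: it was 406, 439 and 519 for TGF-β1 replicates 1, 2 and 3 and 519, 518 and 435 for untreated replicates 1, 2 and 3. What the order stems from was not tested. Without untreated replicate 3, Sdhd passed as lower, with a log2 fold change of -1.01, and with TGF-β1 replicate 1 left out as well it passed with -0.73. With both arrays left out, Ndufv2 and Ndufv3 no longer passed, and 8 of the 10 calls were kept. The median of the family was -0.13 without these 2 arrays and -0.12 without the 10 genes. With the array mean as a covariate, 21 of the 74 members passed (28.4%, beside 49.0% of all genes), 17 lower and 4 higher. The 10 genes that passed without the covariate were among these 21, and of the 10 that varied within groups only Cox7b and Ndufb2 were. The 4 higher were Ndufaf4, Cox7b, Ndufaf1 and Ndufb2.

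**Figure D4:**
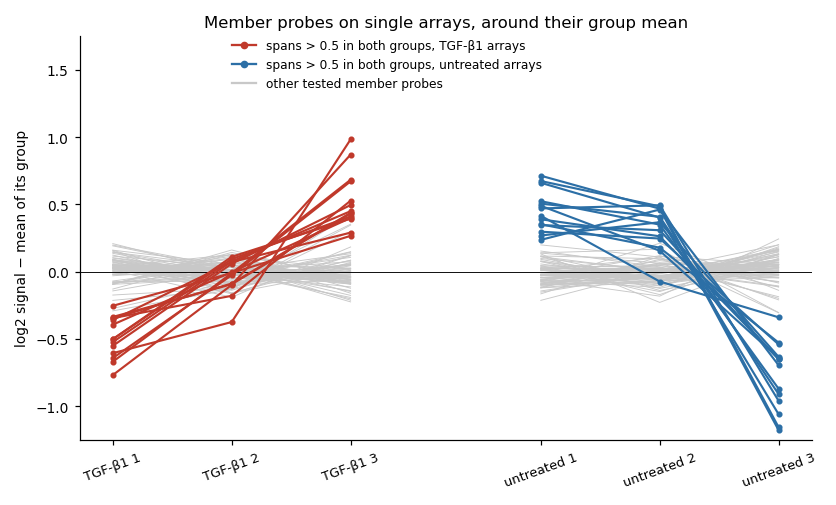
Log2 signal of each of the 88 tested member probes on each array, minus the mean of its group, for the TGF-β1 arrays (left) and the untreated arrays (right). Coloured lines are the 14 probes that span more than 0.5 log2 in both groups, and grey lines are the others. All coloured lines are lowest on TGF-β1 replicate 1 among the treated arrays and on untreated replicate 3 among the untreated ones.

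The remaining 13 genes were not tested. For 10 of them no array of either group was above background: the complex IV isoforms Cox4i2, Cox6a2, Cox6b2, Cox7b2, Cox8b and Cox8c, the core subunits Ndufs1 and Uqcrfs1, and the small subunits Uqcrq and Atp5k. Ndufs1, which carries iron-sulfur clusters of complex I, and Uqcrfs1, the Rieske protein of complex III, are needed by every such complex, and each had a single probe here. Ndufab1, the mitochondrial acyl carrier protein, was above background on 0 of 3 TGF-β1 arrays and 2 of 3 untreated arrays. Ndufb4 and Atp5e were above background on 2 of 3 arrays in each group. The genes encoded by mitochondrial DNA had 0 probes on the list used, so the change of those subunits was not measured.

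Of 17 tested regulators of mitochondrial gene expression, 2 were lower (11.8%, beside 18.4% of all genes), 5 were higher (29.4%, beside 17.3%) and 10 did not pass, with a median of 0.08. The share that passed, 41.2%, was near the 35.7% of all genes. Ppargc1a, which encodes the coactivator PGC-1α, read 7.53, 7.40 and 7.49 after TGF-β1 and 8.77, 8.74 and 8.97 in untreated cells. All TGF-β1 arrays were more than 1 log2 below all untreated arrays (log2 fold change -1.35, SE 0.094, adjusted p = 1.25e-05). Esrra, which encodes the nuclear receptor ERRα, read 9.76, 9.54 and 9.57 after TGF-β1 and 10.19, 10.21 and 10.18 in untreated cells. Its log2 fold change was -0.57 (SE 0.088, adjusted p = 0.00127). Higher were Twnk, the helicase of mitochondrial DNA (0.55, SE 0.13), and the mitochondrial transcription genes Tfb2m (0.33, SE 0.094) and Polrmt (0.33, SE 0.091). Of the GABP subunits, Gabpa (0.35, SE 0.10) and Gabpb1 (0.29, SE 0.092) were higher, and Gabpb2 did not pass (-0.12, SE 0.11). Nrf1 and Tfam, which encodes a packaging and transcription factor of mitochondrial DNA, did not pass (0.21, SE 0.12, and -0.08, SE 0.079).

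Genes that feed electrons into the respiratory chain were counted beside its subunits. Of 14 tested genes of the tricarboxylic acid cycle and pyruvate dehydrogenase, 6 were lower (42.9%, beside 18.4% of all genes) and 0 higher (17.3% of all genes), with a median of -0.25. The share that passed either way, 42.9%, was near the 35.7% of all genes. Suclg2, the GDP-forming succinyl-CoA ligase subunit, read 8.86, 8.63 and 8.64 after TGF-β1 and 9.49, 9.49 and 9.43 in untreated cells (log2 fold change -0.76, SE 0.091, adjusted p = 0.000321). Pdha1 of pyruvate dehydrogenase changed by -0.37, and Ogdh, Idh3a, Fh1 and Dlat by -0.34, -0.32, -0.31 and -0.30. Of 14 tested genes that make coenzyme Q or pass electrons to it by other routes, 6 were lower (42.9%, beside 18.4% of all genes) and 1 higher (7.14%, beside 17.3%), with a median of -0.24. Gpd2, the mitochondrial glycerol-3-phosphate dehydrogenase, read 10.46, 10.37 and 10.29 after TGF-β1 and 11.17, 11.02 and 11.12 in untreated cells (log2 fold change -0.73, SE 0.086, adjusted p = 0.000289). The electron transfer flavoprotein, which takes electrons from fatty acid oxidation, was lower in both subunits (Etfb -0.71 and Etfa -0.60) and in its dehydrogenase (Etfdh -0.53). Coq9, needed for coenzyme Q synthesis, changed by -0.61. Sqor, the sulfide quinone oxidoreductase, changed by -1.06 (SE 0.35), and read 7.74, 7.90 and 8.68 after TGF-β1 and 9.63, 9.49 and 8.38 in untreated cells, so that its groups overlapped. Coq10b, which encodes a coenzyme Q binding protein, was the 1 higher (0.58, SE 0.091). No test compared these lists with the subunits.

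Of 29 tested assembly factors outside the selected symbols, 3 were lower (10.3%, beside 18.4% of all genes) and 1 higher (3.45%, beside 17.3%). Their median was 0.01. Lower were Cox19 (-0.69, SE 0.12) and Coa3 (-0.41, SE 0.10), which serve complex IV assembly, and Tmem126b (-0.37, SE 0.087), which serves complex I assembly. Lrpprc, which stabilises mitochondrial mRNAs, was higher (0.54, SE 0.12). Among 7 tested genes of the ATP synthase inhibitor, the ADP/ATP carriers and the membrane channels, 2 were lower (28.6%, beside 18.4% of all genes). Here 0 were higher (17.3% of all genes), and the median was -0.29. The share that passed either way, 28.6%, was near the 35.7% of all genes. Slc25a5, an ADP/ATP carrier, read 12.87, 12.99 and 12.92 after TGF-β1 and 13.37, 13.37 and 13.19 in untreated cells (-0.39, SE 0.087). Ckmt1, the mitochondrial creatine kinase, read 6.67, 6.40 and 6.46 after TGF-β1, where 1 of 3 arrays was above background, and 7.32, 7.31 and 7.62 in untreated cells, where all 3 were. It passed as lower, and with most TGF-β1 arrays at background the size of its fold is uncertain. Atpif1, the inhibitor of the ATP synthase, did not pass (-0.04, SE 0.11).

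**Figure D5:**
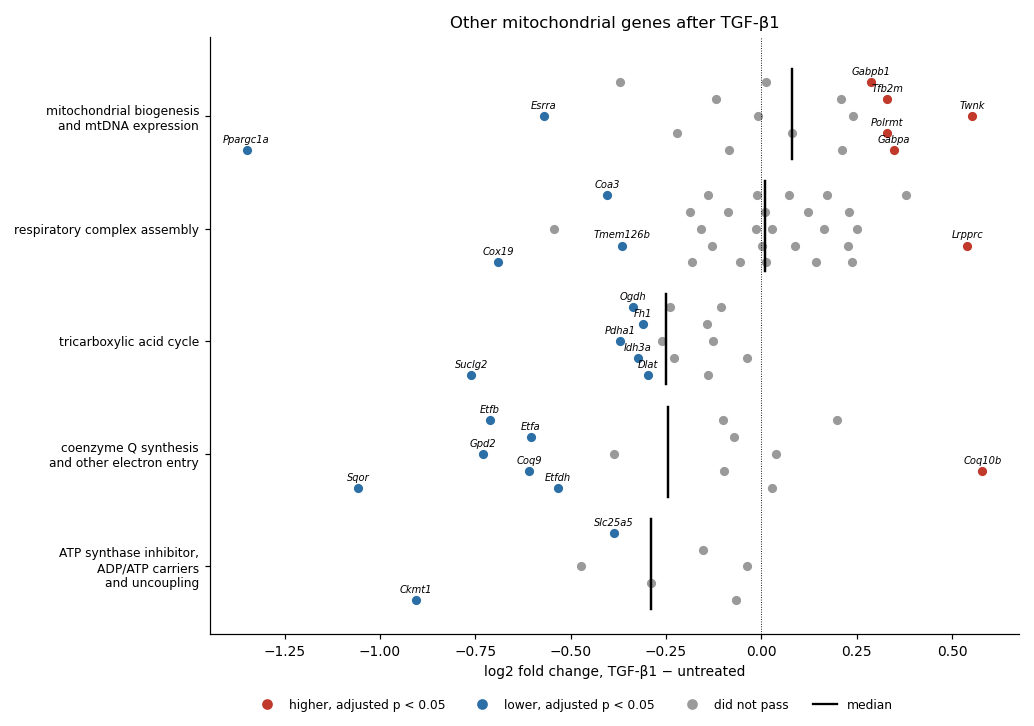
Log2 fold change, TGF-β1 minus untreated, of the tested genes in 5 other mitochondrial lists, 1 point per gene, with the median of each list as a black line. Red genes passed as higher and blue genes as lower. The medians of the tricarboxylic acid cycle, the coenzyme Q list and the carrier list lie at -0.25, -0.24 and -0.29, and those of biogenesis and assembly at 0.08 and 0.01.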

How the data were processed

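Total RNA of 3 TGF-β1-treated and 3 untreated samples was hybridised to Illumina MouseRef-8 version 2 BeadChips and exported by the authors from GenomeStudio. Their deposited raw values are intensities, the mean bead signal of each probe before background subtraction, and the deposited detection values are p-values against each array's negative control beads. The authors' own normalized intensities are quantile-normalized on a linear scale and served as an alternative. Columns not used numbered 0.

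Here the signal intensities were quantile-normalized and taken to log2, and compared by limma 3.58.1 (R 4.3.3) with lmFit and eBayes, Benjamini-Hochberg adjustment over all 7725 genes (or 11189 probes) tested and a threshold of 0.05. Symbols came from the platform table: 23978 probes had 1 and 1719 had none. The named genes are all members that passed, the brightest that did not in each complex, all members not tested, members whose probes differ, and the leading genes of each further list. Ndufaf1, Ndufaf3, Ndufaf5, Ndufaf7, Cyc1, Cycs, Atp5g2, Atp5o, Ndufs4, Nrf1 and Tfam, and of the further lists Tfb2m, Polrmt, Gabpb1, Gabpb2, Fh1, Dlat, Etfa, Etfdh and Coq10b, were added after their values were seen. The members and lists were chosen with earlier results of these data known. No array reading is a count, so precision is set by the 3 arrays of each group. SAM, which the methods name, was not run because it rests on relabelling the arrays. Each array was left out in turn, and background correction, scaling, filter, probe rule, replicate block, variance prior and the test were varied. The alternative test, called the methods' t-test, is Student's test, which the methods give among their general statistics and not for the arrays. The fit was tested on simulated data before use. The RefSeq promoter table (GRCm38.p6) was matched by symbol. Log2 values of different probes were compared only to choose the brightest and, for Cycs, to judge how near background it read.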

Additional observations from a re-analysis of the deposited data

How the results depend on the processing

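Direction and call of Ndufs7, Ndufa5, Cox7c, Cox7a1 and Atp5c1 held in all settings run. Atp5g1 lost its call only with the replicate block, which also ended those of Ndufaf4, Ndufv2, Ndufv3 and Sdhc, as did the methods' t-test. Sdhc lost its call with neqc too. Ndufa6 gained a call with scaling, the stricter detection filter, the mean of probes, the intensity trend and the covariate. Other members gained calls too. The intensity trend passed 14 of 74 members (18.9%, beside 37.0% of all genes) and scaling 12 (16.2%, beside 35.9%), with all 10 calls kept. Without untreated replicate 3, 12 of 77 passed (15.6%, beside 36.4%), and 7 calls were kept. The methods' t-test passed 7 (9.46%, beside 26.8%): 6 calls were kept and Atp5o passed as higher. Leaving out 1 array ended the call of Ndufaf4 in 3 of 6 cases (log2 fold change 0.29 to 0.43), Ndufv2 in 5 (-0.39 to -0.26), Ndufv3 in 4 (-0.38 to -0.25) and Sdhc in 5 (-0.40 to -0.25). Over these cases 0 to 1 genes passed as higher, 6 to 11 as lower and 7 to 14 probes passed. Either way 8.11% to 15.6% of the members passed, beside 26.4% to 36.4% of all genes. The family's median was -0.14 to -0.09. With the replicate block 0 genes passed as higher, 5 as lower and 5 probes passed, where 22.4% of all genes did. Same-numbered arrays deviated from their group means with correlations of -0.66, 0.07 and -0.78. The highest were 0.78, for TGF-β1 replicate 1 with untreated replicate 3, and 0.71, for TGF-β1 replicate 3 with untreated replicate 1. The 3 deviations of a gene in a group sum to 0, so these values depend on each other. Whether the number pairs the arrays was not tested. With the array mean as a covariate, chosen after seeing the data, 4 genes passed as higher, 17 as lower and 23 probes. Either way this was 28.4% of the members, beside 49.0% of all genes.

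Genes near 0 changed sign. Scaling gave -0.0531 for Ndufa4 and -0.0457 for Atp5j2, and the mean of all probes gave 0.0124 for Atp5j. The covariate gave 0.014 for Sdhb, -0.0041 for Ndufa4 and -0.021 for Atp5j2. Without TGF-β1 replicate 1 and untreated replicate 3, values were 0.008 for Ndufv1, 0.0095 for Cox6b1 and -0.0109 for Atp5j2. Leaving out 1 array gave -0.0136 to 0.0274 for Ndufa4, -0.0347 to 0.0315 for Atp5j2, -0.0858 to 0.0533 for Cox6b1, -0.1628 to 0.0174 for Cox4i1 and -0.1083 to 0.0301 for Ndufv1. The causes were not tested. The BeadChip could not be used as a block because no column names it, and 3 arrays a group limit what can be called.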

Other observations

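Members just outside the threshold were all lower in value after TGF-β1. Cox8a, a small complex IV subunit, read 13.00, 12.80 and 13.18 after TGF-β1 and 13.31, 13.24 and 13.31 in untreated cells (log2 fold change -0.30, SE 0.11, limma adjusted p = 0.0596). Atp5d, the δ subunit of the ATP synthase, read 11.03, 10.78 and 11.01 after TGF-β1 and 11.27, 11.17 and 11.15 in untreated cells (-0.25, SE 0.096, adjusted p = 0.0708). Both genes had groups that did not overlap. The probe with the platform symbol Ndufs5-ps, which names a pseudogene of the complex I gene Ndufs5, gave -0.27 (SE 0.10, adjusted p = 0.0732), and reads from gene and pseudogene cannot be told apart here.

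Beside the 9 genes that were lower without it, the fit with the array mean as a covariate, chosen after seeing the data, passed as lower Ndufs5-ps (-0.33), Ndufa6 (-0.30), Ndufa3 (-0.29), Cox8a (-0.26), Atp5b (-0.25), Uqcrc1 (-0.24), Cox6a1 (-0.23) and Ndufa9 (-0.22). Of the genes it passed as higher, Cox7b had a log2 fold change of 0.40, Ndufb2 0.24 and Ndufaf1 0.23.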
